A study of Mus musculus with 6 samples.

Results

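The 41 genes described here encode the enzymes, transporters and regulators that carry glucose through glycolysis to lactate or into the pyruvate dehydrogenase complex, together with the oxygen-regulated factor Hif1a and genes of the hypoxia response. They were chosen by name, and all 41 were found among 38854 genes measured on 6 Affymetrix arrays of mouse regulatory T cells (Treg). For each gene the transcript cluster, the unit of the array that stands for a gene, with the highest mean over the 6 arrays was taken. RNA of liver Treg was on 3 arrays and RNA of spleen Treg on the other 3. All mice carried Foxp3-GFP, a green fluorescent reporter of Foxp3, the transcription factor that defines Treg. Every mouse was given the IL-2/IL-2Ab complex, in which an antibody against the cytokine is bound to it and which expands Treg in vivo, on 3 days, and the cells were taken after a pause of 3 days. Untreated mice and T cells other than Treg are not among the groups, so every value refers to Treg after this expansion. The labels give neither age nor sex, and they name both a FACS sort and a MACS isolation of the cells. Array numbers are those of the labels, and values below follow their order, with 2, 3 and 7 for liver, then 4, 5 and 6 for spleen. Whether each array stands for another animal is not stated, so p-values reflect the array-to-array spread alone, and part or all of it may be technical.

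Glycolysis splits glucose into pyruvate in the cytosol. Its first steps trap glucose in the cell and spend ATP, the later steps from glyceraldehyde-3-phosphate onwards regain it, and pyruvate is then either reduced to lactate and exported or oxidized in mitochondria by pyruvate dehydrogenase. T cells raise glycolysis when they are activated and divide, whereas resting Treg are known to rely more on oxidative metabolism. Hypoxia-inducible factor, of which Hif1a is the regulated subunit, induces most glycolytic genes when oxygen falls, and prolyl hydroxylases mark the subunit for degradation when oxygen is present.

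Values are log2 signals, on which a difference of 1 is a 2-fold difference, and signals of different genes are not compared with each other because each has its own probes. The array medians over all rows lay between 5.68 and 5.90. The 23 rows that measure background averaged 4.55 on spleen array 5 and 4.09 to 4.34 on the other 5 arrays. The organ was not the main difference between arrays: the SD of the log2 difference over all genes was 0.149 between liver arrays 2 and 3, 0.194 between liver array 2 and spleen array 4, and 0.198 between liver array 7 and spleen array 6. Between arrays of the spleen it was 0.240 to 0.281. The 10 markers of Treg lay between 8.86 and 12.2 on all arrays, had a median difference of 0.02 and overlapped between the organs.

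Signals were higher on all liver arrays than on all spleen arrays for most enzymes of glycolysis from phosphofructokinase to pyruvate kinase. Glucose transporters, hexokinases, lactate genes and pyruvate dehydrogenase subunits overlapped between the organs in the signals as deposited. The overlap in Ldha was small, with the lowest liver array minus the highest spleen array at -0.0061. Steps of the pathway were not tested against each other. The largest difference was that of triosephosphate isomerase, Tpi1, at 1.67-fold, followed by phosphoglycerate kinase, Pgk1, at 1.40-fold and enolase, Eno1, at 1.33-fold. None of the 41 genes passed limma at an adjusted p of 0.05, against 8 of all 38854 genes (0.0206%). At an unadjusted p under 0.05, 11 of the 41 were higher in liver and none lower, where 2.09% of all genes were higher and 1.68% lower. In 11 of 41 genes all 3 liver arrays lay above all 3 spleen arrays, where 3.11% of all genes did so and 4.61% of the brighter 50% of genes. In none did they all lie below, where 3.09% of all genes did so. These 11 were Pfkl, Pfkp, Aldoa, Aldoc, Tpi1, Pgk1, Pgam1, Eno1, Pkm, Bnip3 and P4ha1. The 11 with an unadjusted p under 0.05 are not quite the same genes. They hold Pdk3 (limma unadjusted p = 0.031), whose groups overlapped, in place of Pfkp (limma unadjusted p = 0.081). The median difference over the 41 genes was 0.07, against -0.02 over all genes, and 29 of 41 differences were positive (70.7%, against 42.3% of all genes and 50.7% of the brighter 50%). In such bulk RNA, a difference in the share of cells that express a gene and a difference in RNA per cell cannot be told apart. Limma with array weights called 14 of the 41 genes, all higher in liver, together with 3533 of all genes; the weights ran from 0.188 to 9.34, the largest being that of liver array 2.

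**Figure D1:**
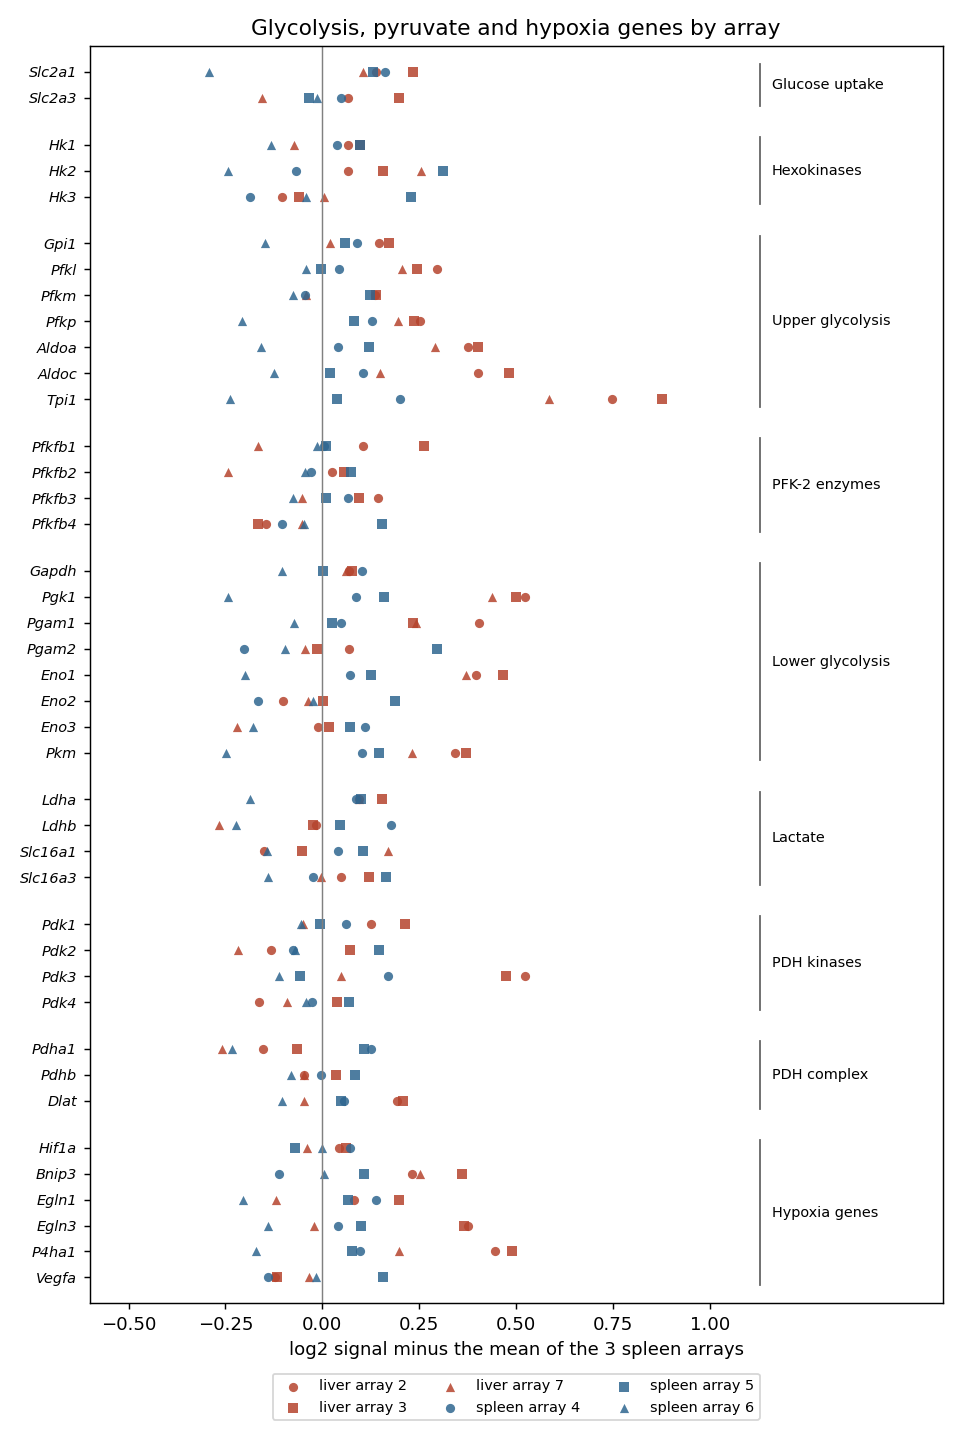
Signals of the 41 genes on each array (log2, each gene minus the mean of its 3 spleen arrays), ordered by step of the pathway, with liver arrays in red and spleen arrays in blue. Tpi1 shows the widest gap between organs, and spleen array 6 is the lowest array in 25 of the 41 genes.

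Spleen array 6 had the lowest signal in 25 of the 41 genes (61.0%), whereas it was lowest in 23.6% of all genes. Of the 11 genes whose groups did not overlap, it was lowest in 10 and spleen array 4 in 1, and the highest array was liver array 3 in 7 and liver array 2 in 4. Without spleen array 6 the median difference over the 41 genes was 0.0244, in a comparison of 3 arrays with 2, against -0.0404 over all genes. With 1 other array left out it was 0.046 to 0.137, against -0.0518 to 0.0454 over all genes.

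**Figure D2:**
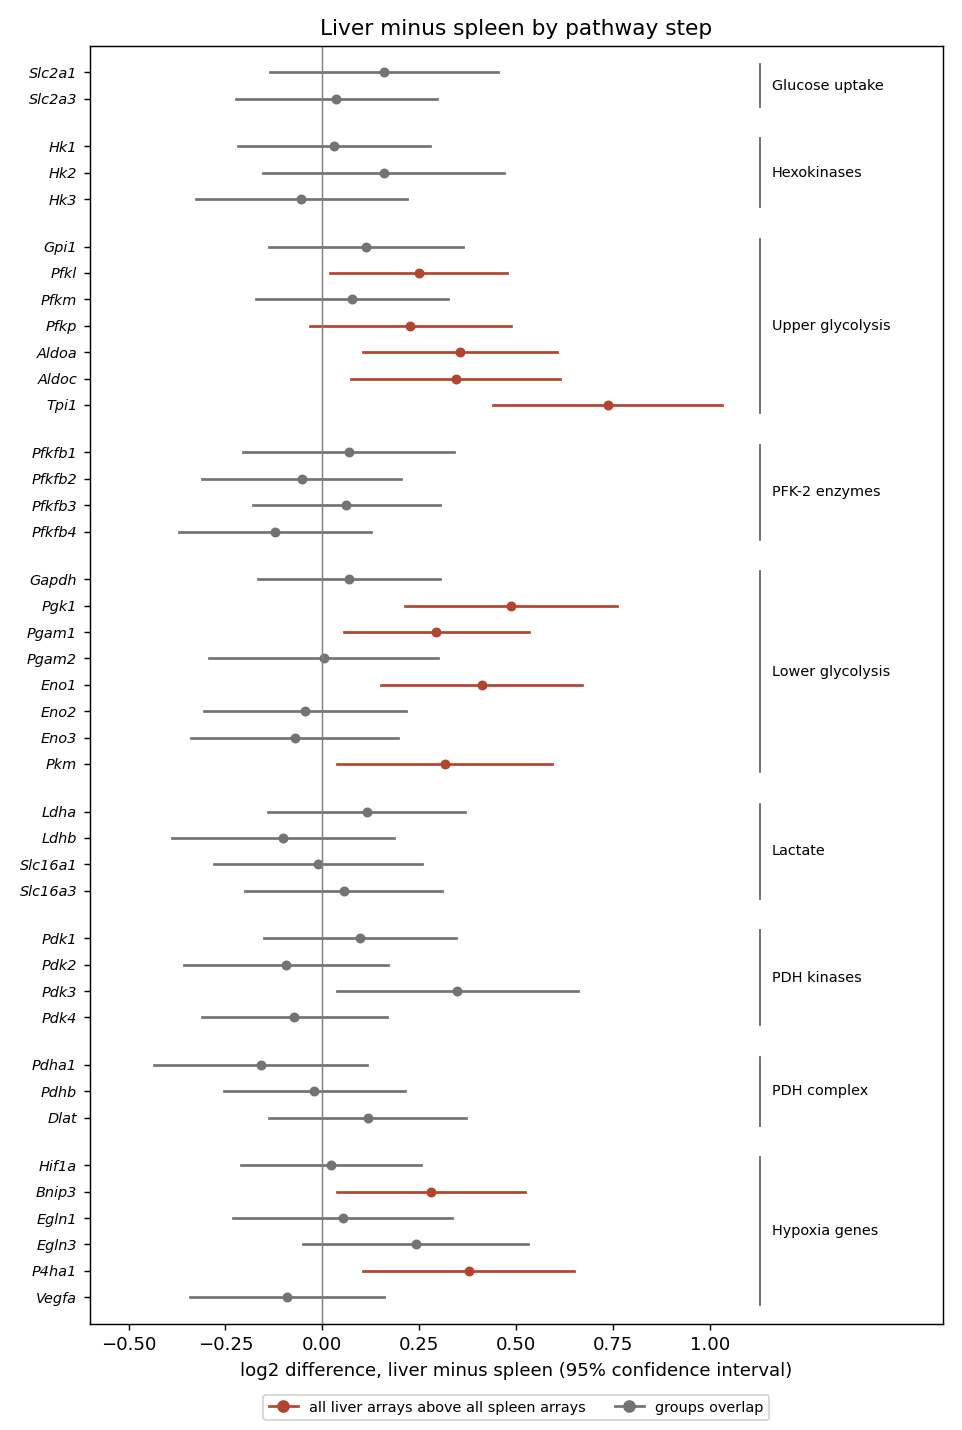
Liver minus spleen differences of the 41 genes (log2, points) with their 95% confidence intervals from limma (lines), by step of the pathway. The 11 genes in red, whose liver arrays all lie above their spleen arrays, fall in upper glycolysis, lower glycolysis and the hypoxia genes.

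Promoters are shown for the pair of genes with the largest differences, Tpi1 and Pgk1 (no gene was lower on all liver arrays), and, chosen after their values were seen, for the hypoxia gene Bnip3 and for Gapdh, whose groups overlapped. They come from RefSeq (build GRCm38.p6) and run from 250 bases before to 50 after the start of the gene. Capitals mark ACGTG or GCGTG on either strand, the core recognised by hypoxia-inducible factor, and CACGTG, the E-box, also holds ACGTG. The Tpi1 window lies at chr6:124814109-124814408, minus strand, that of Pgk1 at chrX:106186850-106187149, plus strand, that of Bnip3 at chr7:138909457-138909756, minus strand, and that of Gapdh at chr6:125165724-125166023, minus strand.
Tpi1: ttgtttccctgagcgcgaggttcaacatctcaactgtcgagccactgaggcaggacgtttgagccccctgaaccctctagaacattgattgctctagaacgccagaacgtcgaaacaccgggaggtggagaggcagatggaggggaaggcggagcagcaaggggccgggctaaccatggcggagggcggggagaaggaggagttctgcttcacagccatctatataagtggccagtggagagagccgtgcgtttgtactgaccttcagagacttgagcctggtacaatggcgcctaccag
Pgk1: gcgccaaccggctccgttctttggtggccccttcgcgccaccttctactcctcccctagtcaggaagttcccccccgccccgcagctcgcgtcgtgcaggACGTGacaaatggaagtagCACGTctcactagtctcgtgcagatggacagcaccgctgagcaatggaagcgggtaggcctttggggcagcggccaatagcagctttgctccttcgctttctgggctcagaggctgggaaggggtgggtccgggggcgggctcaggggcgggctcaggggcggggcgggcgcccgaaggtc
Bnip3: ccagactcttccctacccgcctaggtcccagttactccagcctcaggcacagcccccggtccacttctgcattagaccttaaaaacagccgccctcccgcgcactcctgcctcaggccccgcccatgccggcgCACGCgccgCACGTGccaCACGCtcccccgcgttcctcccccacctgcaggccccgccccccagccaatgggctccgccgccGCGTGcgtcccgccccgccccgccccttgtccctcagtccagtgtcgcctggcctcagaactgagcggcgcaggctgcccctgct
Gapdh: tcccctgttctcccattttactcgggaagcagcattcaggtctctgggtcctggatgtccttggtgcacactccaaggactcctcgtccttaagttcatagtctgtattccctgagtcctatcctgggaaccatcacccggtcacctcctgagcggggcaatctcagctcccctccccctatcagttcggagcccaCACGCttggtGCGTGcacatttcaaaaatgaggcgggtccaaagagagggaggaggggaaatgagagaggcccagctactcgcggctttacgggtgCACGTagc

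The Tpi1 window held no match of the core, the Pgk1 window 2, the Gapdh window 3 and the Bnip3 window 5, of which 2 belong to 1 E-box. In Pgk1 the matches began 150 and 131 bases before the start. A promoter window was found for 40 of the 41 genes and not for Slc2a3. Of these 40 genes, 35 (87.5%) held the core in at least 1 window, against 46.7% of the 27025 genes in the table. The share was 10 of 11 among the genes whose arrays did not overlap and 25 of 29 among the others, and no test was made of these shares. CACGTG was found in 1 of the 11 and in 7 of the 29, against 8.09% of all genes. Ldha, with 7 core matches in 1 window, was among the genes whose arrays overlapped. It had up to 2 E-boxes in a window, and each E-box counts as 2 core matches.

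Glucose enters T cells mainly through the transporters GLUT1, encoded by Slc2a1, and GLUT3, encoded by Slc2a3. Slc2a1 measured 9.0, 9.10 and 8.97 on the liver arrays and 9.02, 8.99 and 8.57 on the spleen arrays, a difference of 0.16 (95% confidence interval -0.13 to 0.45). Only spleen array 6 stood below the rest, and without it the difference was 0.0124. Slc2a3 measured 8.04, 8.17 and 7.82 on the liver arrays and 8.02, 7.94 and 7.96 on the spleen arrays and differed by 0.04 (-0.22 to 0.30). The hexokinases trap glucose as glucose-6-phosphate. Hk2, the form that activated lymphocytes induce, measured 6.65, 6.74 and 6.84 on the liver arrays and 6.52, 6.90 and 6.34 on the spleen arrays, with the highest value on a spleen array. Its difference was 0.16 (-0.15 to 0.47). Hk1, the housekeeping form, differed by 0.03 (-0.22 to 0.28) and Hk3, which is known from myeloid cells, by -0.05 (-0.33 to 0.22). The groups overlapped in all 5 genes.

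In upper glycolysis, from glucose-6-phosphate isomerase to the triose phosphates, all 7 differences were positive, with a median of 0.25, and the groups did not overlap in 5 of 7. Tpi1, which interconverts the triose phosphates made by aldolase (transcript cluster TC0600003119.mm.1), measured 8.97, 9.10 and 8.81 on the liver arrays and 8.43, 8.26 and 7.99 on the spleen arrays. The lowest liver array was 0.38 above the highest spleen array. Its means were 8.96 ± 0.15 in liver and 8.23 ± 0.22 in spleen (SD, n = 3), a difference of 0.74 (SE 0.14, limma adjusted p = 0.151). With 1 array left out the difference was 0.617 to 0.836. For aldolase, which splits fructose-1,6-bisphosphate, all liver arrays lay above all spleen arrays in both forms. Aldoa, the form of muscle and most other tissues, measured 8.22, 8.25 and 8.13 on the liver arrays and 7.88, 7.96 and 7.69 on the spleen arrays, a difference of 0.36 (SE 0.11, limma adjusted p = 0.718). Aldoc, known from brain, measured 7.95, 8.03 and 7.70 on the liver arrays and 7.65, 7.57 and 7.42 on the spleen arrays, a difference of 0.34 (SE 0.12, limma adjusted p = 0.897). In Aldoc liver array 7 was separated from spleen array 4 by 0.04 only.

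Phosphofructokinase commits sugar to glycolysis and is built from liver, muscle and platelet type subunits. Pfkl, the liver type subunit, measured 7.94, 7.89 and 7.85 on the liver arrays and 7.69, 7.64 and 7.60 on the spleen arrays, a difference of 0.25 (95% confidence interval 0.02 to 0.48). The SD of Pfkl was 0.05 in liver and 0.04 in spleen (n = 3), with 0.16 between the nearest arrays of the organs. Pfkp, the platelet type, measured 9.28, 9.26 and 9.22 on the liver arrays and 9.16, 9.11 and 8.82 on the spleen arrays, and its interval included 0 (difference 0.23, -0.03 to 0.49). It was 0.12 without spleen array 6. Pfkm, the muscle type, overlapped at 0.08 (-0.17 to 0.33), as did glucose-6-phosphate isomerase, Gpi1, at 0.11 (-0.14 to 0.36). After the array medians were subtracted, the groups of Pfkp and Aldoc overlapped.

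The bifunctional PFK-2 enzymes make and break fructose-2,6-bisphosphate, the strongest activator of phosphofructokinase. The groups of all 4 overlapped, with differences of -0.12 to 0.07. Pfkfb3, the form with the highest kinase activity, measured 7.77, 7.72 and 7.58 on the liver arrays and 7.69, 7.64 and 7.55 on the spleen arrays, a difference of 0.06 (-0.18 to 0.30). Pfkfb4, itself a hypoxia target, measured 6.20, 6.18 and 6.29 on the liver arrays and 6.24, 6.50 and 6.30 on the spleen arrays, a difference of -0.12 (-0.37 to 0.13). After median subtraction, quantile normalization or cyclic loess all liver arrays of Pfkfb4 lay below all spleen arrays.

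In lower glycolysis, from Gapdh to pyruvate kinase, 4 of 8 genes did not overlap between organs. These were Pgk1, Pgam1, Eno1 and Pkm, the forms of their enzymes that most tissues use. Gapdh, also such a form, overlapped. Pgk1, which makes the first ATP of the pathway, measured 11.25, 11.23 and 11.17 on the liver arrays and 10.81, 10.89 and 10.48 on the spleen arrays, a difference of 0.49 (SE 0.13, limma adjusted p = 0.405). Its 3 liver arrays spanned 0.09, and spleen array 6 lay 0.33 below the next spleen array. The transcript cluster with the higher signal, TC1200001415.mm.1, carries chromosome 12 in its identifier, where RefSeq has the pseudogene Pgk1-rs7, whereas Pgk1 lies on chromosome X. In 99.6% of 31105 rows with a RefSeq symbol the identifier and RefSeq name the same chromosome, and among the 41 genes Pgk1 was the exception. The second Pgk1 cluster, TC0X00001071.mm.1, measured 9.84, 9.80 and 9.70 on the liver arrays and 9.47, 9.34 and 9.15 on the spleen arrays. It differed by 0.46 (SE 0.12, limma adjusted p = 0.401), so both clusters separated the organs, and the level of Pgk1 itself is uncertain.

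Eno1, the enolase of most cells, measured 9.34, 9.41 and 9.31 on the liver arrays and 9.01, 9.07 and 8.74 on the spleen arrays, a difference of 0.41 (SE 0.12, limma adjusted p = 0.575). The neuronal and muscle enolases Eno2 and Eno3 overlapped at -0.05 and -0.07. Pgam1, phosphoglycerate mutase of most tissues, measured 8.46, 8.29 and 8.30 on the liver arrays and 8.11, 8.09 and 7.99 on the spleen arrays, a difference of 0.29 (SE 0.11, limma adjusted p = 0.987), while the muscle form Pgam2 was at 0.00 (-0.29 to 0.30). Pkm, pyruvate kinase, measured 9.57, 9.60 and 9.46 on the liver arrays and 9.33, 9.37 and 8.98 on the spleen arrays, a difference of 0.32 (95% confidence interval 0.04 to 0.59). It was 0.191 without spleen array 6. Gapdh, which oxidizes glyceraldehyde-3-phosphate just after the step of Tpi1, measured 11.12, 11.13 and 11.11 on the liver arrays and 11.15, 11.05 and 10.95 on the spleen arrays. Its liver arrays spanned 0.01 and lay inside the range of the spleen arrays, and it differed by 0.07 (-0.17 to 0.30).

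Several of these enzymes have near copies in the mouse genome, and probes can take up RNA of the parent gene or of the copy. The pseudogene Pgam1-ps2 measured 9.37, 9.42 and 9.30 on the liver arrays and 8.99, 8.86 and 8.77 on the spleen arrays, a difference of 0.49, and it did not overlap either. The other Pgam1 pseudogene, Pgam1-ps1, overlapped at -0.10. Eno1b, Ldha-ps2 and Tpi-rs2 overlapped, at 0.16, 0.07 and -0.02, and Tpi-rs8 differed by 0.27 without overlap. The Tpi-rs8 row was dim, at 4.12 to 4.64, close to the background rows. Which copy a signal came from was not tested. These rows were looked up after the values of the 41 genes were seen.

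A ratio of 2 genes on the same array is not affected by a constant added to all log2 signals of that array, though it is by rescalings that depend on intensity. Relative to Gapdh on the same array, 9 of the 18 other genes of upper glycolysis, lower glycolysis and lactate lay higher on all liver arrays, none lay lower, and 9 overlapped. Of all other genes 1.57% lay higher in this ratio and 6.73% lower, and of the brighter 50% of genes 2.71% lay higher. The 9 are the glycolytic genes whose signals were already separated. The log2 ratio of Tpi1 to Gapdh was -2.14, -2.02 and -2.30 on the liver arrays and -2.73, -2.79 and -2.96 on the spleen arrays. It was -2.16 ± 0.14 in liver and -2.82 ± 0.12 in spleen (SD, n = 3), 1.59-fold higher in liver. For Pgk1 the ratio was 1.34-fold higher, for Eno1 1.27-fold and for Aldoa 1.22-fold. For Ldha it was 1.03-fold, with overlap. Such ratios show unequal differences between genes and do not show that Gapdh itself was equal. Gapdh was chosen as the reference after its values were seen.

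**Figure D3:**
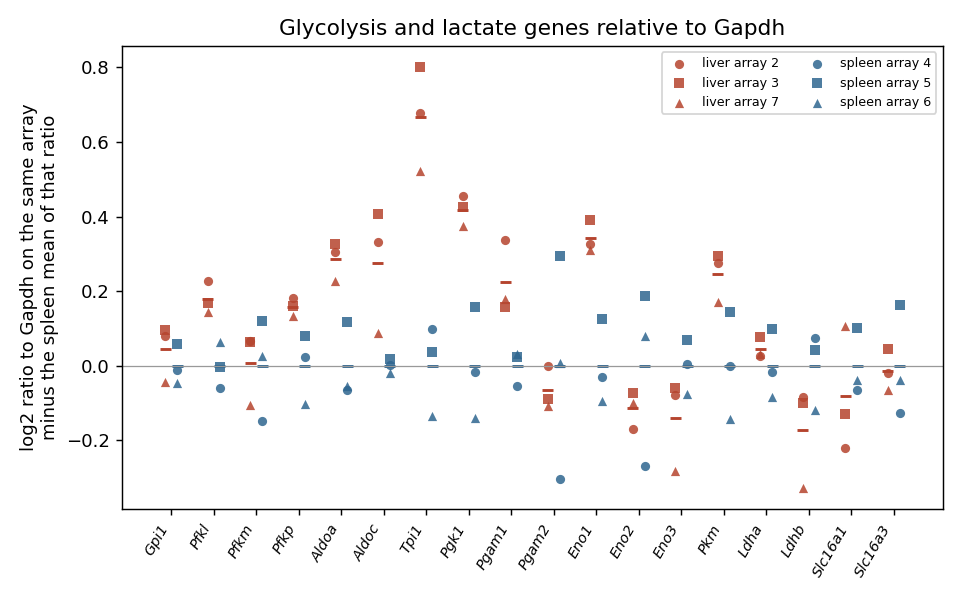
Log2 ratio of each gene to Gapdh on the same array, minus the spleen mean of that ratio, for 18 genes of glycolysis and lactate; points are arrays (liver red, spleen blue) and short bars are group means of 3. In 9 genes, led by Tpi1, all liver points lie above all spleen points, where 1.57% of all genes do so in the same ratio.

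Pyruvate is reduced to lactate by tetramers of the Ldha and Ldhb subunits, and lactate crosses the membrane through the monocarboxylate transporters encoded by Slc16a1 and Slc16a3. Ldha, the subunit that favours lactate production, measured 9.21, 9.27 and 9.21 on the liver arrays and 9.20, 9.22 and 8.93 on the spleen arrays. Its difference was 0.11 (-0.14 to 0.37), with spleen array 6 below the other 5 arrays, and 0.0209 without that array. Ldhb differed by -0.10 (-0.39 to 0.18), and without spleen array 6 its 3 liver arrays lay below the 2 spleen arrays left. Slc16a1 differed by -0.01 (-0.28 to 0.26) and Slc16a3, a hypoxia-induced exporter, by 0.05 (-0.20 to 0.31). For the lactate genes these intervals allow at most 1.29-fold higher signals in liver, the upper bound of Ldha.

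Pyruvate dehydrogenase turns pyruvate into acetyl-CoA and is switched off by its kinases. Pdk3 differed most of the 4 kinases, with 8.13, 8.08 and 7.65 on the liver arrays and 7.77, 7.55 and 7.49 on the spleen arrays. Liver arrays 2 and 3 stood above the rest, but liver array 7 lay below spleen array 4, so the groups overlapped (difference 0.35, 95% confidence interval 0.04 to 0.66). With 1 array left out it was 0.26 to 0.50, the highest without liver array 7. Pdk1, the kinase most known as a hypoxia target, measured 8.20, 8.29 and 8.03 on the liver arrays and 8.14, 8.07 and 8.02 on the spleen arrays and differed by 0.10 (-0.15 to 0.34). Pdk2 and Pdk4 differed by -0.09 and -0.07, Pdk4 with signals of 5.22 to 5.45. Of the subunits of the complex, Pdha1 of the E1 enzyme measured 8.89, 8.98 and 8.78 on the liver arrays and 9.17, 9.15 and 8.81 on the spleen arrays, a difference of -0.16 (-0.43 to 0.12), the largest in favour of spleen among the 41 genes. After quantile normalization, after cyclic loess and without spleen array 6 all its liver arrays lay below all spleen arrays. Its partner Pdhb differed by -0.02 (-0.25 to 0.21) and Dlat, the E2 enzyme, by 0.12 (-0.14 to 0.37).

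Among the hypoxia genes, the transcript of Hif1a itself measured 10.74, 10.76 and 10.66 on the liver arrays and 10.77, 10.63 and 10.70 on the spleen arrays, a difference of 0.02 with an interval of -0.21 to 0.25. The factor is regulated mainly through its protein, which the arrays do not measure. P4ha1, a collagen prolyl hydroxylase subunit and known target, measured 9.38, 9.43 and 9.14 on the liver arrays and 9.03, 9.01 and 8.77 on the spleen arrays, a difference of 0.38 (SE 0.13, limma adjusted p = 0.759). Bnip3, a mitophagy receptor and target, measured 7.02, 7.15 and 7.05 on the liver arrays and 6.68, 6.90 and 6.80 on the spleen arrays, a difference of 0.28 (95% confidence interval 0.04 to 0.52). Both separated the organs, P4ha1 with liver array 7 as the lowest liver array and Bnip3 with spleen array 4 as the lowest of all. Egln3, the prolyl hydroxylase most induced by hypoxia, was high on liver arrays 2 and 3 only, with 8.18, 8.17 and 7.78 on the liver arrays and 7.84, 7.90 and 7.66 on the spleen arrays (difference 0.24, -0.05 to 0.53). Egln1, the main oxygen sensor, differed by 0.05 (-0.23 to 0.34). Vegfa, the angiogenic factor and the target most often used as a readout, measured 6.35, 6.36 and 6.44 on the liver arrays and 6.33, 6.63 and 6.46 on the spleen arrays, a difference of -0.09 (-0.34 to 0.16). After the array medians were subtracted the groups of P4ha1 overlapped, and all liver arrays of Vegfa lay below all spleen arrays.

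Of 94 further genes of the pathway on 6 lists, none passed limma over all genes (0.0206% of all genes did), 2 were higher and 2 lower at an unadjusted p under 0.05, and the groups did not overlap in 7 that were higher and 5 that were lower (3.11% and 3.09% of all genes). Among 24 genes of the hypoxia pathway the signs were mixed, with 5 higher and 2 lower without overlap. Higd1a, a mitochondrial protein induced by hypoxia, measured 8.45, 8.63 and 8.41 on the liver arrays and 8.30, 8.09 and 7.94 on the spleen arrays, a difference of 0.39 (0.12 to 0.66), and the oxidoreductase gene Ero1l differed by 0.38. The other separated genes were Arnt2 at 0.20, Ankrd37 at 0.20 and Ddit4 at 0.09. Bhlhe40, a repressor induced by hypoxia and by T cell activation, went the other way, with 8.63, 8.69 and 8.78 on the liver arrays and 9.63, 9.60 and 8.96 on the spleen arrays, a difference of -0.69 (SE 0.16, limma adjusted p = 0.365). It passed without spleen array 6, at -0.91 (limma adjusted p = 0.0328). Hmox1, haem oxygenase, was also lower, at -0.39 (-0.65 to -0.14). The canonical targets Car9, Ndrg1 and Bnip3l overlapped, at -0.03, 0.02 and -0.02. Ero1l, Arnt2, Ankrd37, Ddit4, Car9, Ndrg1 and Bnip3l were named after their values were seen.

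The pentose phosphate and glycogen genes had small positive differences in 13 of 14 cases, with a median of 0.08 and a maximum of 0.15 in transketolase, Tkt. Transaldolase, Taldo1, was at 0.13 and G6pdx, the first enzyme of the pathway, at 0.12. Groups did not overlap in 1 of them, Pgm2, at 0.11, named after its value was seen. Of 19 other isoforms and regulators of glycolysis, testis Gapdhs lay lower on all liver arrays, at -0.19 (-0.43 to 0.05), and the other 18 overlapped, among them Bsg, the chaperone of the lactate transporters, at 0.10 and Bpgm at 0.10. Pklr and Pck1, enzymes known from hepatocytes, overlapped between the organs at -0.06 and 0.00, also chosen after their values were seen. In gluconeogenesis the glucose-6-phosphate transporter gene Slc37a4 was higher without overlap, at 0.19, and 7 of 8 genes overlapped, with Pck2 at 0.11 and G6pc3 at 0.07. The 8 genes of mitochondrial pyruvate entry and the dehydrogenase complex all overlapped, with Pdpr at 0.15 and the phosphatases Pdp1 and Pdp2 at -0.05 and 0.04. Of 21 upstream regulators 19 overlapped, including Irf4, a factor of activated T cells, at -0.23 (-0.60 to 0.15), Txnip at 0.13 and, chosen after their values were seen, Myc at 0.01 and Mtor at 0.00. Foxo1, a factor of quiescent T cells, lay lower on all liver arrays at -0.16 (-0.39 to 0.07), as did Ppargc1a, a coactivator of mitochondrial genes, at -0.13, named after its value was seen.

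Cell cycle genes were separated between the organs on the same arrays. Of 16 cell cycle genes 14 were higher on all liver arrays (3.11% of all genes were), with a median difference of 0.49. Their summed level was 13.16 to 13.24 on the liver arrays and 12.58 to 13.02 on the spleen arrays. The median deviation of these 16 genes from their mean over the arrays was 0.26, 0.29 and 0.17 on the liver arrays and 0.03, -0.14 and -0.57 on the spleen arrays. For upper glycolysis it was 0.17, 0.12 and 0.08 on the liver arrays and -0.08, -0.06 and -0.30 on the spleen arrays, and for lower glycolysis 0.13, 0.07 and 0.05 on the liver arrays and -0.12, -0.02 and -0.18 on the spleen arrays. Spleen array 6 was the lowest array in all 3 sets. The ribonucleotide reductase gene Rrm2 measured 9.18, 9.22 and 9.15 on the liver arrays and 8.90, 8.61 and 8.08 on the spleen arrays. The part of cell cycle genes in the glycolytic differences was not tested.

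Most markers of NK and dendritic cells were also separated. For the counts below, the share of all genes was 3.11% higher on all liver arrays and 3.09% lower. Of 14 NK cell markers 11 were higher on all liver arrays, and Klrc1, the NK receptor chain, rose by 1.56 (limma adjusted p = 0.0305). Ncr1 at 0.38, Klra8 at 0.24 and Eomes at -0.12 overlapped. The summed level of the 14 markers was 12.3 to 12.6 on the liver arrays and 11.3 to 11.8 on the spleen arrays, on the log2 scale. Of 13 dendritic cell markers 9 were higher on all liver arrays, with sums of 10.7 to 11.2 and 10.3 to 10.6, and 2 of 4 CD8 T cell markers were, with sums of 9.69 to 9.72 and 9.01 to 9.56. In the dendritic cell list H2-Eb1 at 0.53, Ccr9 at 0.17, Batf3 at -0.01 and Zbtb46 at -0.06 overlapped. So did Cd8b1 at 0.29 and Crtam at -0.27 in the CD8 T cell list. Of 14 neutrophil and monocyte markers 2 were higher and 1 lower, with sums of 10.47 to 10.83 and 10.27 to 10.53, which overlapped. Lyz2, a lysozyme of myeloid cells, measured 8.16, 8.10 and 7.31 on the liver arrays and 6.27, 6.74 and 6.37 on the spleen arrays (limma adjusted p = 0.0659), whereas S100a8 and S100a9 lay at 3.21 to 5.10 on all arrays, near the background rows. Liver array 7 had less of the NK and dendritic cell markers than liver arrays 2 and 3, with median deviations of -0.01 and 0.00. In the 11 genes without overlap its median deviation was 0.09, against 0.20 and 0.22 on liver arrays 2 and 3. These 11 genes were picked by their separation on the same arrays. Liver array 7 was also the lowest liver array in the 30 glycolysis, pyruvate and hypoxia genes with overlap (-0.07 against 0.04 and 0.08). The same held in the Treg list (-0.09 against 0.02 and 0.06) and over all genes (-0.04 against -0.02 and 0.04). Liver array 7 was the highest liver array in the CD8 T cell, macrophage, and endothelial and stellate lists, at 0.27, -0.04 and 0.03. Summed hepatocyte markers overlapped, at 9.52 to 9.61 in liver and 9.45 to 9.75 in spleen, as did those of erythroid cells (8.35 to 8.36 and 8.24 to 8.62), macrophages (9.79 to 9.95 and 9.78 to 10.1), B cells (9.91 to 10.1 and 9.78 to 10.0) and endothelial and stellate cells (9.99 to 10.1 and 10.1 to 10.3). Of the 13 macrophage markers, Spic, Vcam1 and Hmox1 were lower on all liver arrays and none was higher, with differences from -0.97 in Spic (limma adjusted p = 0.0425) to 0.42 in Vsig4, whose groups overlapped. Among 10 B cell markers 2, Ms4a1 at 0.38 and Cd79a at 0.16, were higher on all liver arrays and none was lower. Of the hepatocyte markers Alb alone was higher on all liver arrays, with 5.44, 5.55 and 5.22 on the liver arrays and 4.83, 5.11 and 4.86 on the spleen arrays. Vcam1, Vsig4, Alb, S100a8, S100a9, Ncr1, Klra8, Eomes, H2-Eb1, Ccr9, Batf3, Zbtb46 and Ms4a1 were named after their values were seen. Whether these transcripts came from other cells or from the Treg themselves was not tested. Their part in the glycolytic differences was not tested either.

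**Figure D4:**
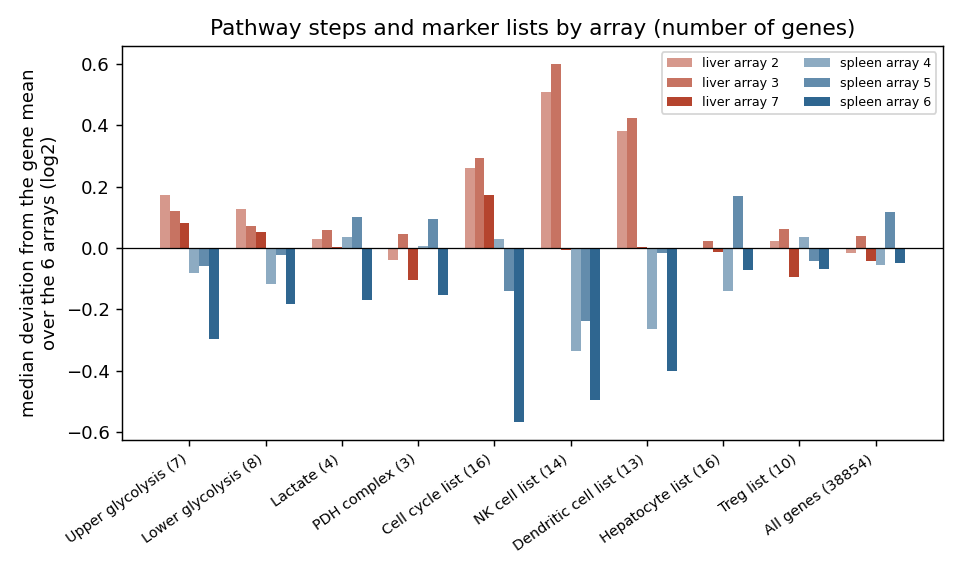
Median deviation of each gene set from the genes' means over the 6 arrays (log2), with 1 bar per array, liver in red and spleen in blue. Upper and lower glycolysis, lactate, the pyruvate dehydrogenase complex and the cell cycle, NK and dendritic cell lists have their lowest bar on spleen array 6. The hepatocyte list, the Treg list and all genes have theirs on another array.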

How the data were processed

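RNA of Treg was measured on 6 arrays, 3 per organ, 1 array per sample. The deposited values are log2 signals made by the authors; the submitters' processing notes name RMA and Affymetrix Expression Console. The labels call the arrays Mouse Gene ST 2.0, whereas the file's column headers read MTA-1_0. Their software versions, build and annotation release: not given in the sources used here. Both deposited tables held the same numbers (largest difference 0). Of 72688 rows, 186 controls, 32901 rows without and 87 with several symbols were left out. The 39514 others gave 38854 genes, taking for the 526 symbols with several rows the row with the highest mean. Background was not filtered in the comparison reported.

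Liver was compared with spleen with limma (version 3.58.1, R 4.3.3). Linear models were fitted with lmFit, moderated with eBayes and tested two-sided, and p-values were adjusted after Benjamini and Hochberg across the 38854 genes (threshold 0.05). Confidence intervals (95%) come from the same model and are not adjusted. The smallest two-sided p of an exact permutation test with 3 against 3 arrays is 0.1. The number of arrays limits precision. RMA compresses differences of dim genes. The genes and lists were chosen with earlier results of these data known. Named genes were all members, and of each further list up to 3 with the largest differences among the brighter 50% of genes; others are named as chosen later. Of 224 genes on the lists, 219 were found. The procedure was tested on simulated arrays. Symbols were matched to RefSeq tables (GRCm38.p6), 41 of 41 for names. Alternatives were filters on dim genes, 3 rescalings, averaging of rows, an intensity trend, array weights and leaving out each array, with 2 more added after the data were seen.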

Additional observations from a re-analysis of the deposited data

How the results depend on the processing

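No paired analysis was possible because the labels give no replicate number to both organs. The count of genes called by limma, 8 as reported, was 18 without the lower 50% of genes by mean, 21 without genes whose mean was under 5, 23 with an intensity trend, 3533 with array weights, and 0 after median subtraction, quantile normalization or cyclic loess (where unadjusted p-values under 0.05 numbered 1448, 2391 and 2429). Leaving out 1 array gave 0 to 33, the 0 without spleen array 5 (2017 genes at an unadjusted p under 0.05). Of the 41 genes, 14 were called with array weights and none in the other settings, where the smallest adjusted p was that of Tpi1, 0.0575 to 0.615. Among the 94 further pathway genes 8 were called with array weights, and leaving out 1 array gave 0 to 1, Bhlhe40 without spleen array 6. The genes without overlap and higher in liver were 8 after median subtraction (3.18% of all genes), all among the 11, and 11 to 20 with 1 array left out, a step that cannot undo a separation; the 20 came without liver array 7, where 13.7% of all genes were separated and higher. Genes separated and lower, 0 as reported, were 2 after each rescaling (3.27% to 5.25% of all genes were), 0 to 3 with 1 array left out (4.21% to 11.4% of all genes), and 1 with liver arrays 2 and 3 averaged, where 5.16% of all genes were, an alternative chosen after seeing the data, as was Pgk1 from its X row, which changed no call. Pdha1 (0.00838) and Irf4 (0.0553) changed sign with array weights, the 2 named genes whose difference exceeded its SE that did so; the causes were not tested. Of the 41 genes 26 kept their sign in all 16 alternatives (Pdk4 in the 15 that hold it), and 15 with differences of at most 0.159 did not. Median differences over the 41 genes stayed between 0.0244 and 0.178, and those over all genes between -0.0518 and 0.0454. Without liver array 2, without liver array 3, or with both averaged, 5 genes were higher at an unadjusted p under 0.05, without spleen array 6 only 4, against 11 as reported.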
